A study of Mus musculus with 7 samples.

Results

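The TNF receptor superfamily genes examined here were Tnfrsf1a, Fas, Tnfrsf10b, Tnfrsf21, Tnfrsf1b, Cd40, Ltbr, Tnfrsf11a, Tnfrsf12a and Tnfrsf14. They were taken from a list of 10 symbols that was chosen with earlier results of these data known. Each symbol matched 1 of the 55414 gene identifiers in the count table. The libraries were made from Paneth cells (PCs), the granulated antimicrobial cells of the crypt base, which had been sorted from the small intestine of C57BL/6J mice. The animals had received tumour necrosis factor (TNF) or phosphate-buffered saline (PBS) 15 h before, and there were 3 PBS and 4 TNF libraries, each from a separate mouse. Both groups shared the strain and the sort, and the labels name no transgene or deleted allele. The sources used here give neither the age and sex of the mice nor the dose of TNF. The library totals ran from 15511455 to 19193721 counts.

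Receptors of this superfamily are membrane proteins that are brought together by trimeric ligands of the TNF superfamily. A subset carries a cytoplasmic death domain, which recruits the adaptors TRADD or FADD and can lead to NF-kB signalling, apoptosis or necroptosis. The others bind TRAF adaptors through short motifs and mainly switch on canonical or alternative NF-kB signalling. TNF itself binds TNFR1, which is found on most cell types, and TNFR2, which is best known from leukocytes and endothelium and is inducible in epithelium.

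The labelled cell type was checked first. The 10 PC marker genes summed to 170299 to 275704 CPM in the PBS libraries and 172629 to 313754 CPM in the TNF libraries, where CPM is counts scaled to 1e6. Lyz1, Defa24 and Itln1 made up most of this sum and were not called, while Mmp7, Defa22 and Pla2g2a were called higher and Clps, Habp2 and Pnliprp2 lower (log2 fold changes -2.27, -1.26 and -1.39). Among leukocyte markers, Cd3e, Ms4a1, Nkg7 and Cpa3 had 0 counts in every library and Cd79a, Csf1r, S100a8 and Gzma stayed under 1 CPM. Of these, S100a8, Gzma and Csf1r had 0, 0 and 1 count in all after PBS and 32, 20 and 14 counts after TNF. Ptprc was detected and was called lower, at 11.4 to 26.2 CPM after PBS and 6.25 to 12.7 CPM after TNF. The leukocyte list summed to 88.3 to 119 CPM after PBS and 296 to 451 CPM after TNF. Without Cd74, the invariant chain gene that epithelium can also express, it summed to 25.2 to 33.7 and 25.3 to 32.7 CPM. That sum combined lower averages of Ptprc (16.4 and 8.5 CPM) and Lyz2 (9.72 and 8.29 CPM) with higher ones of S100a9 (0 and 5.92 CPM), Cd79b (0.377 and 1.94 CPM) and Cd68 (1.37 and 2.86 CPM). A similar sum therefore does not mean that each marker was unchanged. The 10 stromal and endothelial markers summed to at most 0.589 CPM in any library, and the 4 erythroid markers to at most 0.236 CPM. Summed tuft cell markers were 1397 to 2313 CPM after PBS and 265 to 677 CPM after TNF, and summed goblet cell markers were 7455 to 14177 and 6806 to 7447 CPM. Muc2, the largest term of the goblet sum on average, was not called, whereas Fcgbp (2892 and 58.9 CPM on average), Tff3 and Clca1 were lower and Spdef was higher. The sums were 767 to 937 and 313 to 384 CPM for enterocyte markers, 35.9 to 94.4 and 11.6 to 24.6 CPM for enteroendocrine markers, and 3467 to 4785 and 1971 to 2717 CPM for stem cell markers. The part of these shifts in the results below was not tested, and in bulk RNA a smaller number of cells of a type and less RNA per cell cannot be told apart.

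Of the 10 receptor genes, 9 were higher after TNF, and Tnfrsf14 did not pass the test (edgeR quasi-likelihood test, adjusted p under 0.05 over all 14329 genes tested). None was lower by edgeR or DESeq2, and all 10 fitted changes were positive. Without Cd40, which passed the filter on low counts only through the TNF libraries and so had to differ, 8 of 9 were higher. Over all tested genes, 59.6% were called, 29.5% higher and 30.1% lower, so the background of calls in this comparison was large. For the 9 called genes all TNF libraries lay above all PBS libraries, which held for 29.9% of all tested genes, and 60.7% had groups that did not overlap in either direction. A rise of at least 4-fold was fitted for 7 of the 10 (5.40% of all tested genes), and of at least 8-fold for 3, which were Cd40, Tnfrsf1b and Tnfrsf12a (2.64%), or for 6 and 2 of 9 without Cd40. The median log2 fold change was 2.26 over the 9 members other than Cd40, 2.60 with it, and 0.0017 over all tested genes. The filter asks for about 10 counts in at least 3 libraries, and the 9 other members passed it in each group alone.

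**Figure D1:**
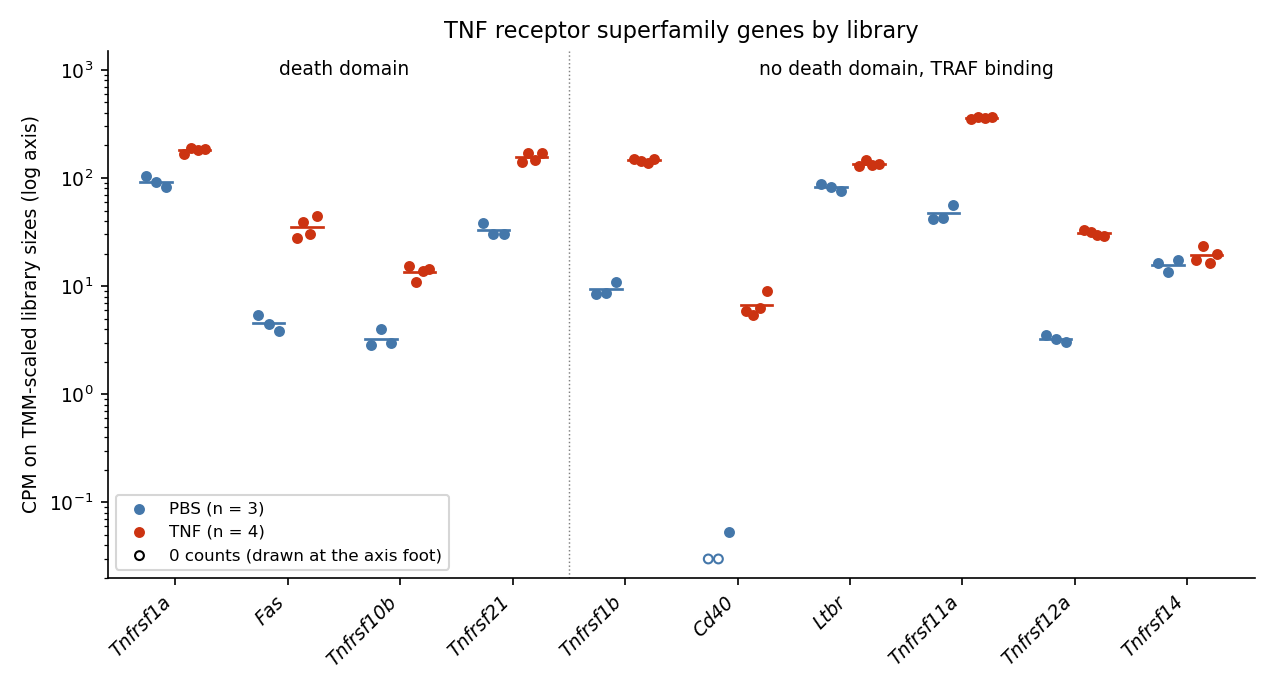
CPM of each receptor gene (log axis) in every PBS (blue) and TNF (red) library, with a bar at the group mean (that of Cd40 after PBS, 0.0177 CPM, lies below the axis) and open circles for libraries with 0 counts. All TNF points lie above all PBS points except for Tnfrsf14, whose groups overlap between 16.5 and 17.3 CPM.

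The 250 bases before the start site were available from RefSeq (build GRCm38.p6) for 8 of the 10 genes, and Tnfrsf10b and Cd40 had no entry. Because 9 of the 10 members were higher, these windows were searched on both strands for 4 motifs of inflammatory signalling. They were a strict NF-kB site (GGGA, any 2 bases, TTCC), the broader NF-kB consensus, which overlaps it, the palindromic core TTCNNNGAA of the gamma-activated site bound by STAT factors, and a core of the interferon-stimulated response element (TTTC, any 2 bases, TTTC). Neither NF-kB motif occurred in any of the 8 windows, where 1.21% and 3.90% of 32851 promoters hold them, which says only that these letters are not in this window. The letters TTCNNNGAA were present in 3 of 8 windows (7.02% of all promoters), those of Tnfrsf1a, Fas and Tnfrsf1b, and the interferon-type core in 2 of 8 (2.98%), those of Tnfrsf1b and Tnfrsf14. The 4 windows with a match are printed because they include both TNF receptor genes and the only member that was not called. Capitals mark the matches, and each sequence reads 5′ to 3′ on the strand of its gene.
Tnfrsf1a (chr6:125349473-125349722, plus strand): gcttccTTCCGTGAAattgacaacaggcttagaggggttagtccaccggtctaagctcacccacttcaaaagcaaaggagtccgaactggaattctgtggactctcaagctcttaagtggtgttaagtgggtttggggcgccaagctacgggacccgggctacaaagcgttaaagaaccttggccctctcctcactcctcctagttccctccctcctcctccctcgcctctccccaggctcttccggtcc
Fas (chr19:34290409-34290658, plus strand): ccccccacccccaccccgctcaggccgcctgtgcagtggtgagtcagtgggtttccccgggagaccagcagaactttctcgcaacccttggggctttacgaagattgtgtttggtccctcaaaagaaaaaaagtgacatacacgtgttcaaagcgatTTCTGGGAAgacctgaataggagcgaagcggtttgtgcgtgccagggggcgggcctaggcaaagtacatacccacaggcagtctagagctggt
Tnfrsf1b (chr4:145246871-145247120, minus strand): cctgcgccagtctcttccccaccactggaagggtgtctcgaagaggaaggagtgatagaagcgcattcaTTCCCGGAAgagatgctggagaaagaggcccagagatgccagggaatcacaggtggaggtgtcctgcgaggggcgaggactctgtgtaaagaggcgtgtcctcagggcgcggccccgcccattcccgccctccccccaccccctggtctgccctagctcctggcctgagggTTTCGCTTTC
Tnfrsf14 (chr4:154928078-154928327, minus strand): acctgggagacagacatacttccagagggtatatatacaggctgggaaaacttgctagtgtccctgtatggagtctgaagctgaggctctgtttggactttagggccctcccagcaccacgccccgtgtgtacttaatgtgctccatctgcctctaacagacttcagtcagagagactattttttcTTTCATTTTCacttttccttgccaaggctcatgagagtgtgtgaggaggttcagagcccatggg
The matches started 244 bases before the start site in Tnfrsf1a, 93 in Fas and 181 in Tnfrsf1b, and the second motif lay 10 to 1 bases before the start of Tnfrsf1b and 64 to 55 before that of Tnfrsf14. A match in letters is a description and not evidence of binding.

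Death domain receptors were examined next, and all 4 rose. Gene positions are those of the GENCODE M39 annotation of GRCm39, and values of each gene are given in library order. Tnfrsf1a (ENSMUSG00000030341, chromosome 6, 125325566 to 125339632, plus strand), which encodes TNFR1, stood at 104, 90.8 and 82.9 CPM in the PBS libraries and at 166, 191, 183 and 185 CPM in the TNF libraries. The lowest TNF library thus lay well above the highest PBS library, although this receptor was already abundant after PBS. The change was 0.97 ± 0.11 on the log2 scale (SE, edgeR adjusted p = 4.36e-06), or 1.96-fold.

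Fas (ENSMUSG00000024778, chromosome 19, 34268001 to 34305173, plus strand) encodes the receptor of FAS ligand, which assembles a death-inducing complex with FADD and caspase-8. It was measured at 5.38, 4.43 and 3.87 CPM after PBS and at 27.8, 39.4, 30.2 and 44.5 CPM after TNF, and relative to its mean it had the widest spread of the death domain receptors within the TNF group, with an SD of 7.84 CPM (n = 4) around a mean of 35.5 CPM. Its fitted change was still many times its error (log2 fold change 2.96 ± 0.20, edgeR adjusted p = 3.6e-08).

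Tnfrsf10b (ENSMUSG00000022074, chromosome 14, 70004916 to 70021860, plus strand) encodes the only death receptor of mice for TRAIL. Its values were 2.84, 4.02 and 2.97 CPM after PBS and 15.4, 10.8, 13.9 and 14.4 CPM after TNF. The groups did not overlap, and the log2 fold change was 2.05 ± 0.22 (edgeR adjusted p = 2.29e-06), but the PBS values rest on only 46 to 79 counts per library.

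Tnfrsf21 (ENSMUSG00000023915, chromosome 17, 43327349 to 43400081, plus strand), which encodes death receptor DR6, was found at 38.2, 30.3 and 30 CPM after PBS and at 141, 171, 148 and 169 CPM after TNF. Per kilobase of exon it was the second most abundant death domain receptor in both groups, and it rose by a log2 fold change of 2.26 ± 0.13 (edgeR adjusted p = 6.21e-09). The median log2 fold change of the 4 death domain receptors was 2.15, with a range from 0.97 to 2.96.

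Apart from Cd40, the receptors without a death domain had log2 fold changes from 0.30 to 3.95, with a median of 2.94 over 5 genes. Tnfrsf1b (ENSMUSG00000028599, chromosome 4, 144938938 to 144973477, minus strand), which encodes TNFR2, was at 8.47, 8.6 and 11 CPM after PBS and at 149, 143, 138 and 151 CPM after TNF. Its 4 TNF values lay within a narrow band, with an SD of 5.73 CPM (n = 4). The rise was 15.5-fold (log2 fold change 3.95 ± 0.13, edgeR adjusted p = 7.95e-11).

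Cd40 (ENSMUSG00000017652, chromosome 2, 164897544 to 164914868, plus strand) encodes the receptor of CD40 ligand and is best known from B cells, macrophages and dendritic cells. It had 0, 0 and 1 count in the PBS libraries and 106, 92, 118 and 138 counts in the TNF libraries, or 5.42 to 9.03 CPM. The ratio of TNF to PBS was 361 (95% exact binomial interval 64.4 to 14285, counting error only). No PBS library and all 4 TNF libraries had 10 counts or more, so its call was partly set by the filter and is no separate support. The lone PBS count lay in replicate 3, and without that library Cd40 was at least 78.8-fold higher, computed against a floor of 3 counts over the PBS group. Leaving out PBS replicate 1 or 2 instead gave ratios of 254 and 231. Among the leukocyte markers only Ptprc was called lower (16.4 ± 8.52 and 8.5 ± 2.9 CPM, -0.95 ± 0.33 on the log2 scale, edgeR adjusted p = 0.027). Cd74 was called higher. Cd79b and S100a9 passed the filter only through the TNF libraries, so only their values are given. Cd79b stood at 0.247 to 0.458 CPM after PBS and 1.18 to 2.69 CPM after TNF, and S100a9 had 0 counts in every PBS library and 3.21 to 7.85 CPM after TNF. S100a8, Gzma and Csf1r, too rare to test, had 0, 0 and 1 count in all after PBS and 32, 20 and 14 counts after TNF. Cd68 (1.37 ± 1.09 and 2.86 ± 0.947 CPM), Itgam (0.781 ± 0.516 and 0.85 ± 0.233 CPM) and Lyz2 (9.72 ± 4.01 and 8.29 ± 3.24 CPM) were not called. The B cell marker Ms4a1 was at 0 in every library. The part of such cells in the Cd40 result was not tested.

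Ltbr (ENSMUSG00000030339, chromosome 6, 125283534 to 125290886, minus strand), the lymphotoxin beta receptor gene, lies near Tnfrsf1a on chromosome 6. It was abundant in both groups, with 88.3, 83.2 and 76 CPM after PBS and 128, 146, 130.4 and 135 CPM after TNF. Its rise was the smallest among the called members, with a log2 fold change of 0.71 ± 0.10 (edgeR adjusted p = 3.7e-05).

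Tnfrsf11a (ENSMUSG00000026321, chromosome 1, 105708358 to 105777170, plus strand) encodes RANK, which in the intestine is known from M cell differentiation. It rose from 41.8, 42.4 and 56.7 CPM after PBS to 349.6, 369, 359.8 and 363 CPM after TNF, the highest CPM of any member. The TNF libraries differed by little (SD 8.05 CPM, n = 4), and the log2 fold change was 2.94 ± 0.13 (edgeR adjusted p = 7.74e-10).

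Tnfrsf12a (ENSMUSG00000023905, chromosome 17, 23894416 to 23896468, minus strand), which encodes FN14, the receptor of TWEAK, was at 3.52, 3.21 and 3.02 CPM after PBS and at 33.2, 31.5, 29.6 and 29 CPM after TNF. Both groups were tight, and the log2 fold change was 3.25 ± 0.15 (edgeR adjusted p = 1.08e-09). All of its annotated exon bases (100%, 1965 bases) are overlapped by exons of Hcfc1r1 on the opposite strand, and whether counting used strand was not given in the sources used here. Hcfc1r1 moved the other way, with 7.93 ± 3.03 CPM in the 3 PBS libraries and 3.54 ± 1.2 CPM in the 4 TNF libraries (log2 fold change -1.16 ± 0.33, edgeR adjusted p = 0.00818).

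Tnfrsf14 (ENSMUSG00000042333, chromosome 4, 155005126 to 155013020, minus strand) encodes HVEM, which binds LIGHT and the inhibitory receptor BTLA and is known from mucosal epithelium. Its values were 16.2, 13.5 and 17.3 CPM after PBS and 17.5, 23.4, 16.5 and 19.8 CPM after TNF. The ranges overlapped, and the log2 fold change of 0.30 ± 0.16 did not pass the test (edgeR adjusted p = 0.116). Its 95% interval ran from -0.04 to 0.65, which overlaps the interval of Ltbr (0.49 to 0.92) and lies below those of the other called members (the lowest is that of Tnfrsf1a, 0.73 to 1.20).

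Both genes for receptors of TNF rose, but not by the same factor. The ratio of Tnfrsf1b to Tnfrsf1a within a library does not depend on how libraries are scaled. In counts per kilobase of exon, it was 0.0516, 0.0603 and 0.0847 in the PBS libraries and 0.571, 0.476, 0.482 and 0.517 in the TNF libraries. Tnfrsf1b thus came much closer to Tnfrsf1a in each TNF library, while Tnfrsf1a remained the more abundant transcript. On the log2 scale, the PBS libraries averaged -3.96 ± 0.37 (SD, n = 3) and the TNF libraries -0.97 ± 0.12 (SD, n = 4). They differed by 2.99 (two-sided exact permutation test, p = 0.0286, the smallest p that 35 splits can give).

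Levels of different genes can be compared only per length, and CPM per kilobase of annotated exon was used here. After PBS, Ltbr (34.5 ± 2.58, SD, n = 3) and Tnfrsf1a (29.4 ± 3.46) led, and their library ranges overlapped. Both lay far above Tnfrsf21 (7.46 ± 1.06), Tnfrsf11a (6.21 ± 1.11) and Tnfrsf14 (5.79 ± 0.723), of which each overlapped its neighbour in the order. A lower group of Fas (1.97 ± 0.328), Tnfrsf1b (1.89 ± 0.291) and Tnfrsf12a (1.65 ± 0.129) followed, again with overlapping neighbours. Tnfrsf10b (0.575 ± 0.113) and Cd40 (0.00519 ± 0.00898) stood apart at the bottom.

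After TNF, the order was Tnfrsf1a (57.6 ± 3.34, SD, n = 4), Ltbr (56.3 ± 3.34), Tnfrsf11a (47.7 ± 1.06), Tnfrsf21 (35.7 ± 3.45) and Tnfrsf1b (29.4 ± 1.16) in CPM per kilobase. Only Tnfrsf1a and Ltbr among these overlapped. Tnfrsf12a (15.7 ± 0.98) and Fas (15.3 ± 3.38) overlapped as well, and were followed by Tnfrsf14 (7.14 ± 1.13), which moved from place 5 to place 8 without a called change of its own. Tnfrsf10b (2.39 ± 0.349) and Cd40 (1.96 ± 0.473) closed the list with overlapping ranges. With the length of the longest transcript in place of the exon union, the order after TNF was the same, while after PBS Tnfrsf1a changed places with Ltbr and Tnfrsf12a moved from place 8 to place 6.

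**Figure D2:**
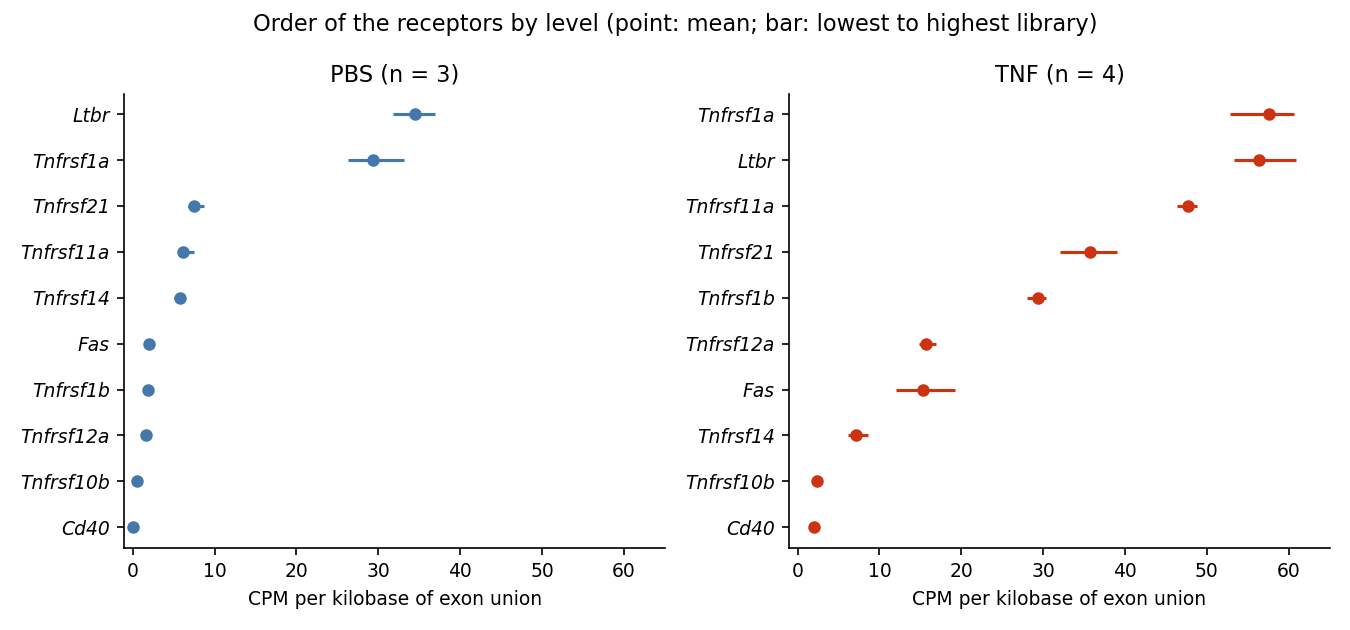
Level of each receptor gene in CPM per kilobase of exon union, ordered from highest to lowest in the PBS group (left) and in the TNF group (right), with the mean as a point and the range over libraries as a bar. After PBS only Ltbr and Tnfrsf1a exceed 10, whereas after TNF 7 of the 10 genes do.

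Summed over the 10 genes, the level was 89.5 ± 6.27 CPM per kilobase in the PBS group (SD, n = 3) and 269 ± 13.9 in the TNF group (SD, n = 4). Tnfrsf1a and Ltbr together made up 68.5% to 73% of this sum in the PBS libraries and 41.4% to 43.2% in the TNF libraries. Tnfrsf11a went from 7.01% ± 1.63 to 17.7% ± 0.577, and Tnfrsf1b from 2.13% ± 0.445 to 10.9% ± 0.7. Tnfrsf21 went from 8.31% ± 0.587 to 13.3% ± 0.603, and Tnfrsf14 from 6.49% ± 0.94 to 2.65% ± 0.297. These shares add to a fixed whole and are given as a description.

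**Figure D3:**
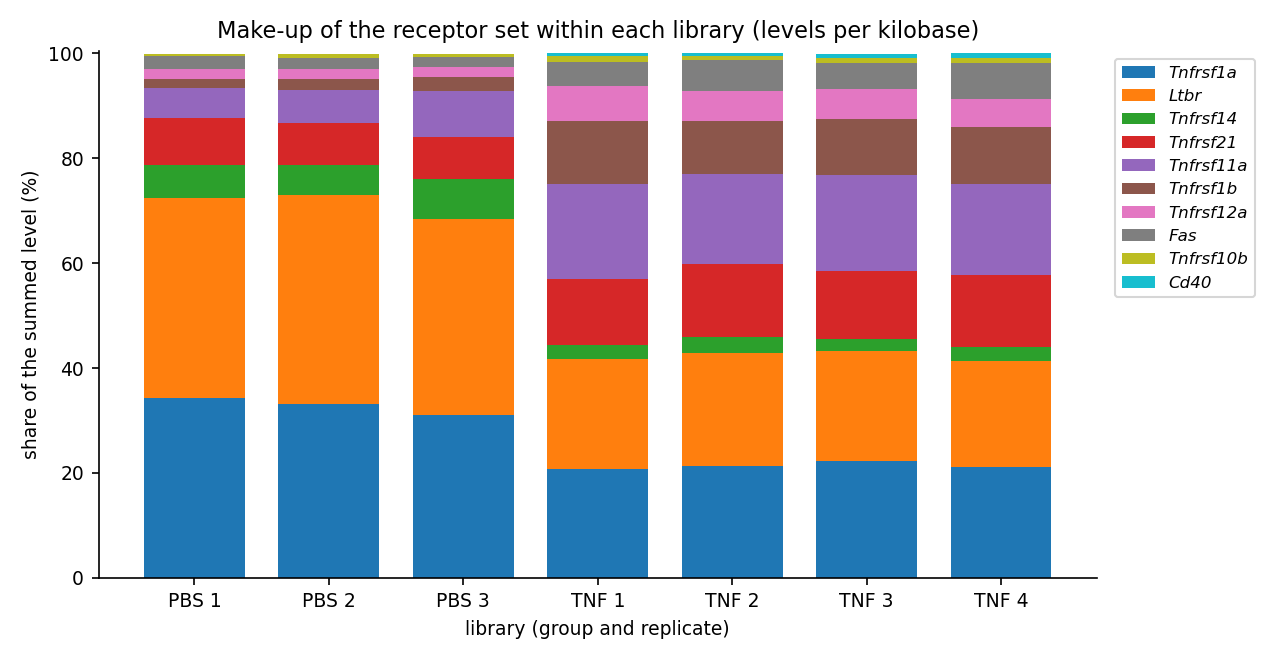
Share of each gene in the summed level of the 10 receptor genes (%, from CPM per kilobase), 1 bar per library. Tnfrsf1a and Ltbr take 68.5% to 73% of each PBS bar and 41.4% to 43.2% of each TNF bar, and the TNF bars resemble each other closely.

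Ligands were examined next, because a receptor transcript can be read beside that of its ligand in the same cells. Of 18 TNF superfamily ligand genes, 9 passed the filter on low counts. Of these, 4 were higher and 5 did not pass the test (background 29.5% higher and 30.1% lower). None was lower by edgeR, also at an unadjusted p under 0.05, or by DESeq2. Without Ltb, which passed the filter only through the TNF libraries, 3 of 8 were higher, and the median log2 fold change was 0.08 (0.29 with it). Tnf itself rose from 1.3, 1.12 and 2.02 CPM after PBS to 75.9, 111, 88.1 and 97.8 CPM after TNF. The lowest TNF library lay far above the highest PBS library, with a log2 fold change of 5.97 ± 0.21 (edgeR adjusted p = 1.62e-10). Per kilobase of exon union, Tnf reached 56.8 ± 8.98 (SD, n = 4) after TNF, a value close to that of Tnfrsf1a in the same libraries. This closeness depends on the length used. The longest transcript of Tnfrsf1a (2341 bases) is shorter than its exon union (3149 bases), while Tnf has 1639 bases by both. By longest transcript Tnfrsf1a thus lies above Tnf.

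Ltb, which encodes the membrane anchor of lymphotoxin, the ligand of LTBR, rose from 0.141 ± 0.101 to 1 ± 0.0971 CPM (2.74 ± 0.68 on the log2 scale, edgeR adjusted p = 0.00316), a low level that rests on 8 counts after PBS and 69 after TNF. No PBS library had 10 counts, so its call was partly set by the filter. Without PBS replicate 2 its change was 3.45. Tnfsf9, which encodes the ligand of the receptor 4-1BB, rose from 0.747 ± 0.167 to 9.19 ± 1 CPM (3.60 ± 0.29, adjusted p = 1.48e-07). Its receptor gene Tnfrsf9 was nearly silent, with 2 counts in all after PBS and 7 after TNF. Eda, which encodes ectodysplasin, rose from 1.61 ± 0.811 to 4.02 ± 0.682 CPM (1.31 ± 0.38, edgeR adjusted p = 0.0082), a call that was lost with total-count scaling (1.12, adjusted p = 0.0507).

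Of the ligand genes that did not pass, Tnfsf10, which encodes TRAIL, the ligand of the Tnfrsf10b product, stood at 34.1 ± 8.69 CPM after PBS and 26.5 ± 4.7 CPM after TNF (-0.37 ± 0.18 on the log2 scale, edgeR adjusted p = 0.0881), and it was called lower under 5 of 14 alternatives. Tnfsf15 was at 26 ± 8.76 and 31.8 ± 5.6 CPM and was called higher without PBS replicate 1 (0.60, adjusted p = 0.00928), and Tnfsf13b, which encodes BAFF, at 1.68 ± 0.672 and 1.54 ± 0.728 CPM. Tnfsf12, which encodes TWEAK, was at 1.46 ± 0.728 and 1.26 ± 0.689 CPM, and Tnfsf13, which encodes APRIL, at 3.37 ± 0.923 and 2.37 ± 0.613 CPM. The exons of Tnfsf12 and Tnfsf13 are shared with the read-through gene Tnfsfm13 over 52.4% and 65.7% of their length, so these counts are uncertain.

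The ligands of several members were not detected. Cd40lg, Tnfsf11 (RANK ligand) and Tnfsf14 (LIGHT) had 0 counts in every library, as did Cd70, Tnfsf4, Tnfsf8 and Tnfsf18, which allows a level of up to 0.0243 CPM (3 counts over all 7 libraries, counting error only). Fasl had 2 counts, both in TNF replicate 3, and Lta had 1 count in all after PBS and 32 after TNF, none of them in TNF replicate 1. Transcripts for the receptors FAS, CD40 and RANK thus rose in libraries in which the transcripts of their ligands were at or near 0.

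**Figure D4:**
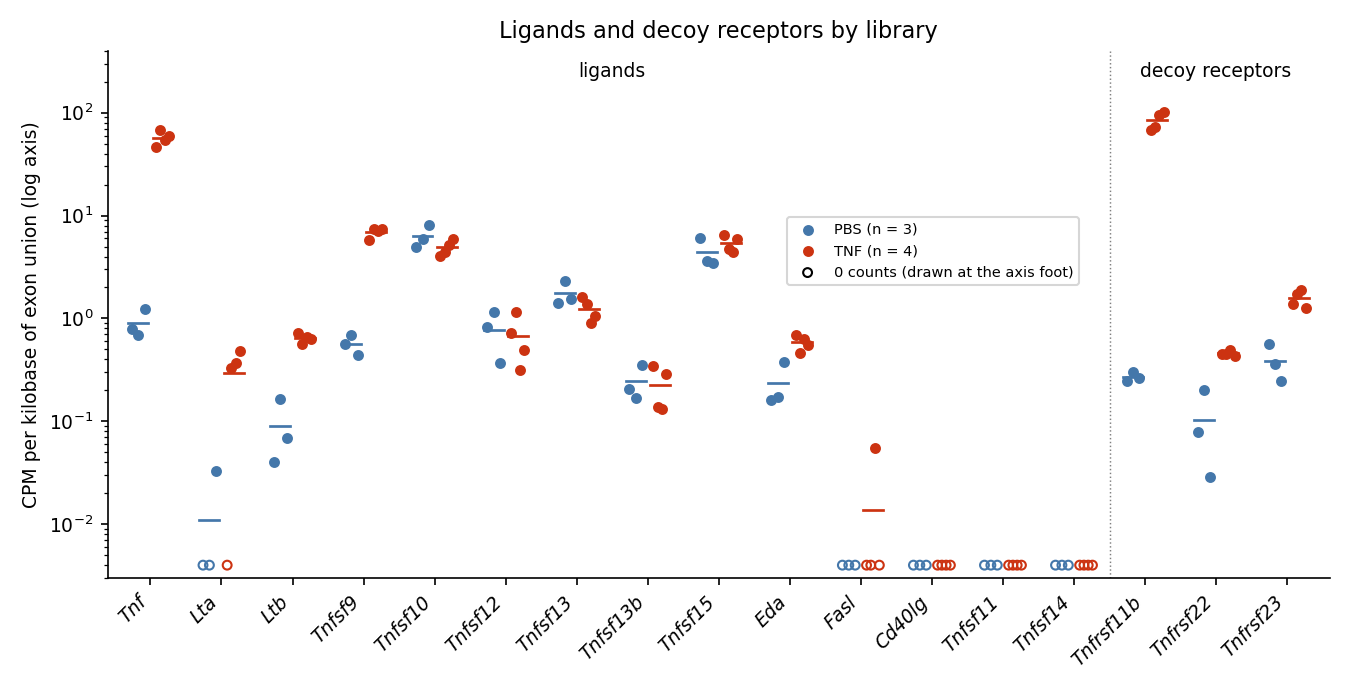
Level of 14 ligand genes and 3 decoy receptor genes in CPM per kilobase of exon union (log axis) in every PBS (blue) and TNF (red) library, with a bar at the group mean and open circles for libraries with 0 counts. Tnf and Tnfrsf11b separate most widely between the groups, and Cd40lg, Tnfsf11 and Tnfsf14 have open circles only.

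Among 18 other genes of the receptor superfamily, 10 passed the filter. Of these, 5 were higher, 2 lower and 3 did not pass (background 29.5% higher and 30.1% lower). However, 5 of the 10 (Relt, Tnfrsf22, Tnfrsf18, Tnfrsf4 and Tnfrsf8) passed the filter only through the TNF libraries, where they were higher. Of the other 5 genes, 2 were higher and 2 lower, with a median log2 fold change of -0.81 against 1.20 over all 10. The largest rise was that of Tnfrsf11b, which encodes osteoprotegerin, the secreted decoy receptor that binds RANK ligand and TRAIL. It stood at 0.742, 0.916 and 0.795 CPM after PBS and at 205, 218, 288 and 305 CPM after TNF, a log2 fold change of 8.26 ± 0.23 (edgeR adjusted p = 1.68e-11). Per kilobase, the ratio of Tnfrsf11b to Tnfrsf11a was 0.0352 to 0.0542 in the PBS libraries and 1.47 to 2.1 in the TNF libraries, so the decoy went from the rarer to the more abundant of these transcripts.

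Tnfrsf22 and Tnfrsf23, which encode decoy receptors of TRAIL in mice, had log2 fold changes of 2.13 ± 0.56 and 2.02 ± 0.32 (edgeR adjusted p = 0.00478 and 9.81e-05), from 0.571 ± 0.495 to 2.55 ± 0.13 CPM and from 1.76 ± 0.719 to 7.08 ± 1.32 CPM. They are neighbouring paralogs with Tnfrsf26, so their counts are uncertain individually. The call of Tnfrsf22 was partly set by the filter, since 1 of 3 PBS libraries passed it, and without PBS replicate 2 its change was 3.11. Relt rose from 0.0877 ± 0.111 to 1.03 ± 0.388 CPM (3.42 ± 0.85, adjusted p = 0.00314) on 5 counts after PBS. No PBS library had 10 counts, so its call was partly set by the filter. It was not tested without TNF replicate 1, 2 or 3, and without PBS replicate 3 its change was 4.90. Tnfrsf18, which encodes GITR, was called at 1.60 ± 0.66 (adjusted p = 0.0487) from 0.409 ± 0.396 to 1.23 ± 0.255 CPM, a call that was partly set by the filter in the same way and was lost under 9 of 14 alternatives. Its change was 2.71 without PBS replicate 1, and 35.9% of its exon bases overlap an antisense gene.

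Falling receptor genes were Eda2r and Tnfrsf19. Eda2r, a p53-responsive gene whose product binds the A2 form of ectodysplasin, was at 31.1, 24.3 and 30.2 CPM after PBS and at 10.2, 6.84, 6.37 and 12.2 CPM after TNF, with no overlap. The log2 fold change was -1.68 ± 0.21 (edgeR adjusted p = 1.32e-05). Tnfrsf19, which encodes TROY, a gene known from Lgr5 stem cells, fell from 13.5 ± 2.51 to 7.71 ± 1.88 CPM (-0.81 ± 0.21, adjusted p = 0.00481). In the same libraries 5 of 6 stem cell markers were lower, or 4 of 5 without Ascl2, which passed the filter only through the PBS libraries, against 30.1% of all tested genes. Tnfrsf4, Tnfrsf8 and Tnfrsf25 did not pass the test, with 0.648 ± 0.237, 0.752 ± 0.293 and 2.18 ± 0.604 CPM in the PBS group and 1.14 ± 0.684, 0.95 ± 0.261 and 0.918 ± 0.649 CPM in the TNF group. Tnfrsf25 was called lower without TNF replicate 1 (-1.61, adjusted p = 0.0416 by edgeR). Exons on the opposite strand overlap 17.1% of the exon bases of Tnfrsf25 and 11.7% of those of Tnfrsf19.

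**Figure D5:**
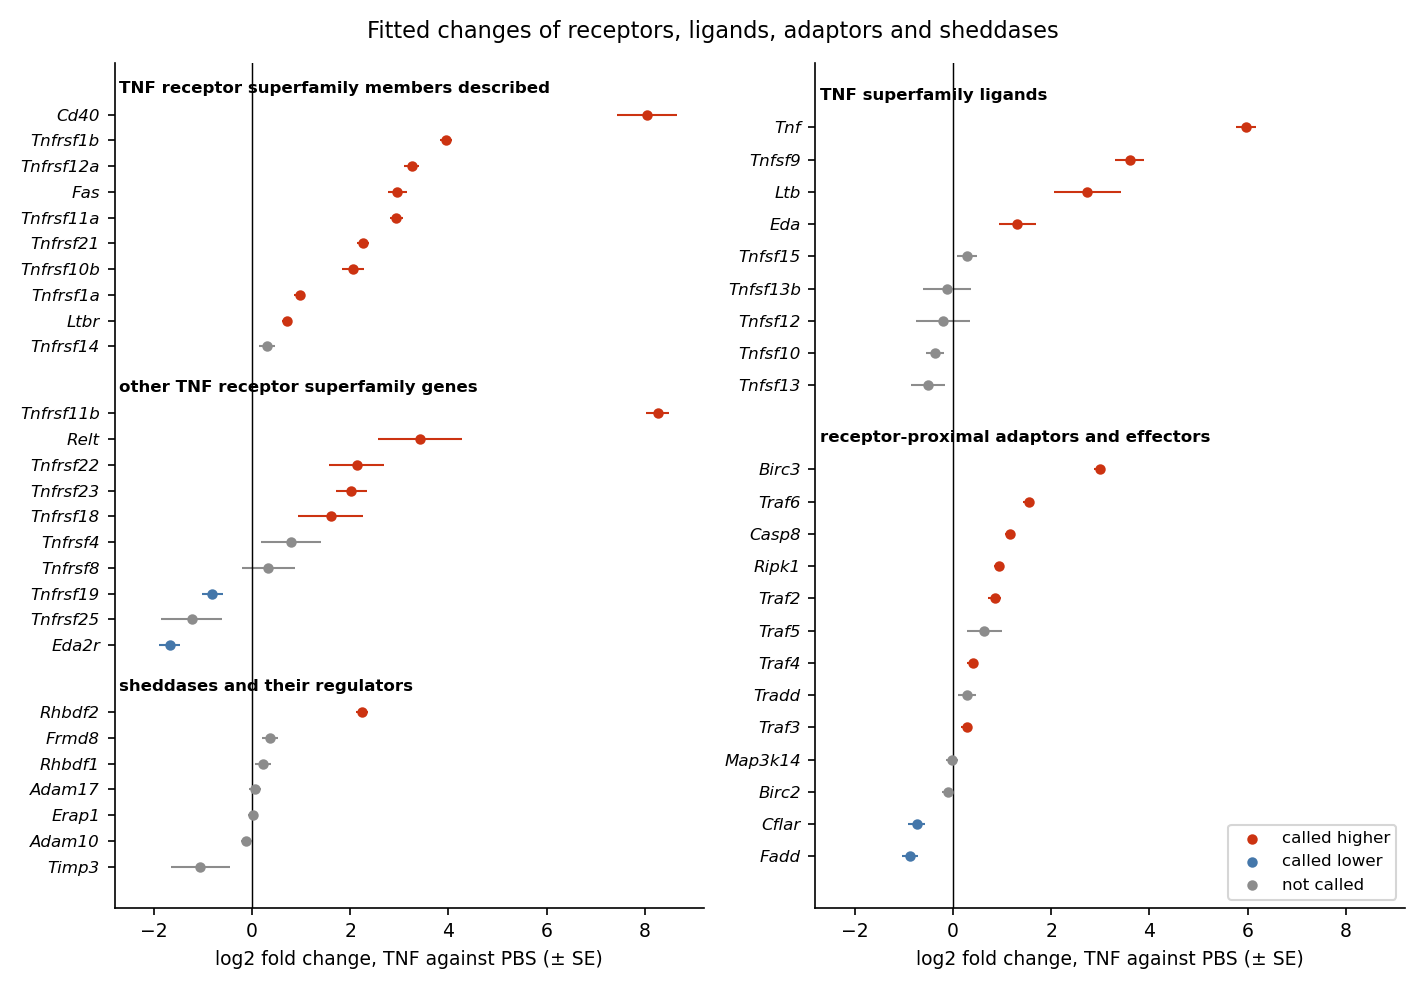
Log2 fold change of TNF against PBS (horizontal axis, bars are SE) for the tested receptor, sheddase, ligand and adaptor genes, red where called higher, blue where called lower and grey where not called. Cd40 (8.04) and Tnfrsf11b (8.26) lie farthest to the right and Eda2r (-1.68) farthest to the left.

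Adaptors and effectors that act directly below these receptors moved in both directions. Of 14 genes 13 were tested, of which 7 were higher, 2 lower and 4 did not pass (background 29.5% and 30.1%), with a median log2 fold change of 0.40, and all 13 passed the filter in each group alone. The higher count was 5 with total-count scaling and without PBS replicate 3, and its least stable call was Traf3 (0.28, edgeR adjusted p = 0.0435), which was lost under 8 of 14 alternatives. Birc3, which encodes cIAP2, a ubiquitin ligase of the TNFR1 complex and a well-known NF-kB target, rose from 23.4 ± 1.67 to 186 ± 12 CPM (2.99 ± 0.11, edgeR adjusted p = 2.33e-10). Its paralog Birc2, which encodes cIAP1, was at 40.6 ± 2.28 and 37.6 ± 3.62 CPM (-0.11 ± 0.11, adjusted p = 0.416). Ripk1, the kinase of the TNFR1 complex, and Casp8, the initiator caspase, rose by log2 fold changes of 0.94 ± 0.11 (adjusted p = 4.69e-06) and 1.16 ± 0.10 (4.15e-07).

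In contrast, Fadd, the adaptor between death domains and caspase-8, fell from 18.4 ± 1.3 to 10.1 ± 1.69 CPM (-0.87 ± 0.16 on the log2 scale, edgeR adjusted p = 0.000442). Cflar, which encodes the caspase-8 inhibitor cFLIP, fell from 95.3 ± 4.86 to 57 ± 15.9 CPM (-0.74 ± 0.17, adjusted p = 0.00208). Tradd, the first adaptor of TNFR1, was at 12.7 ± 1.41 and 15.4 ± 3.17 CPM and did not pass (0.29 ± 0.18, adjusted p = 0.197). Traf2 rose from 15.8 ± 0.655 to 28.6 ± 2.79 CPM (0.85 ± 0.13, adjusted p = 6.14e-05), and Traf1 was too rare to test, with 17 counts in all after PBS and 6 after TNF.

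Receptors of this family can be cut from the cell surface by sheddases. Of 7 genes for sheddases and their regulators, only Rhbdf2 passed the test, against 59.6% of all tested genes called and 29.5% called higher. It encodes iRhom2, which carries the TNF and TNF receptor sheddase ADAM17 to the surface, and rose from 28.9 ± 3.32 to 137 ± 16.2 CPM (2.24 ± 0.13 on the log2 scale, edgeR adjusted p = 8.59e-09). Adam17 itself was at 27.6 ± 3.48 and 28.7 ± 2.59 CPM (0.06 ± 0.13, adjusted p = 0.704). Adam10 was at 127 ± 12.8 and 117 ± 12.5 CPM, Rhbdf1 at 20.5 ± 3 and 24 ± 4.51 CPM, Frmd8 at 14.2 ± 2.2 and 18.2 ± 2.32 CPM, Timp3 at 1.8 ± 0.603 and 0.866 ± 0.784 CPM and Erap1 at 106 ± 9.18 and 107 ± 2.98 CPM, and none of these passed. Frmd8 was however called higher without PBS replicate 2 or without TNF replicate 4. None of the 7 was lower over all libraries, also at an unadjusted p under 0.05 or by DESeq2, but Timp3, which passed the filter only through the PBS libraries, was called lower without TNF replicate 1 (-1.90, edgeR adjusted p = 0.00824). Opposite-strand exons overlap 20.6% of the exon bases of Frmd8, 21.3% of those of Timp3 and 10.3% of those of Erap1.

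Genes with the most similar profiles over the 7 libraries were listed for the TNF receptor genes, by the root mean square difference of log2 CPM after centring. For Tnfrsf1a these were Tor1aip2 (0.034), Ext1 (0.042) and M6pr (0.044), and 122 of 12180 genes compared lay within 0.1. For Tnfrsf1b they were Pvr (0.153), Cers3 (0.185) and Mfsd2a (0.210), with none within 0.1. Because centring was over all 7 libraries, the difference largely follows the size of the change between groups. The log2 fold changes of Tor1aip2, Ext1 and M6pr were 0.95, 1.04 and 0.96, beside 0.97 for Tnfrsf1a. The number of genes within 0.1 thus depends on how many genes changed by a similar amount. Pvr, which encodes the poliovirus receptor, went from 7.28 ± 0.726 to 100 ± 5.02 CPM, and Mfsd2a from 2.69 ± 0.302 to 51.6 ± 6.2 CPM. Cers3 had 0 counts in every PBS library and 1.96 ± 0.231 CPM after TNF, so its place rests on the prior count added before taking logs.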

How the data were processed

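Bulk RNA of sorted PCs had been sequenced single-end (Element AVITI). The authors deposited raw counts, whole numbers of reads per gene with 1 column per library, and no column was left out. The submitters' processing notes name FastQC, Trimmomatic 0.39, STAR 2.7.10a and DESeq2 and the builds mm10 and mm39. The counting program, annotation and strand use were not given in the sources used here. Symbols, positions and exon lengths were taken by identifier from GENCODE M39 (GRCm39), which held 54749 of 55414 identifiers (98.8%), so lengths may differ from the counted intervals. Promoter sequences came from RefSeq (GRCm38.p6).

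TNF was compared with PBS over all 7 libraries in edgeR 4.0.16 under R 4.3.3 by its quasi-likelihood test (robust, two-sided, TMM scaling, filterByExpr with a minimum count of 10) on the counts as deposited, and p-values were adjusted by Benjamini-Hochberg over 14329 genes. CPM are on TMM-scaled library sizes. Each SE is the fitted change divided by the root of its F statistic, and 95% intervals of changes from the t distribution. Floors and binomial (Clopper-Pearson) intervals cover counting error only. For shares, levels and profiles no test was made, and the log2 CPM of profiles used a prior count of 2. On simulated counts for this comparison (14329 genes, dispersions from the fitted trend), 75% of 100 genes changed 2-fold and 93% of 100 changed 4-fold were called in the right direction. No other gene was changed in the simulation, whereas 59.6% of tested genes were called in the data. These rates therefore need not hold for the data. Replicates differed beyond sampling noise (chi-square per degree of freedom at least 15.7). P-values measure the spread between mice, 1 library each.

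The members, gene lists and motifs were chosen with earlier results of these data known. The rule for names took all 10 members, all tested ligands, other receptors and sheddases, 9 fixed adaptors, and the 3 protein-coding genes nearest in profile to Tnfrsf1a and to Tnfrsf1b. Ligands and receptors too rare to test, marker genes, Traf3, Map3k14 and Hcfc1r1 were named after their values were seen, and 1 marker gene is not reported here. Alternatives were DESeq2 1.42.0 size factors, the DESeq2 test, total-count scaling, TMM without alpha-defensins and Lyz1, no filter, a filter of 1 CPM in 3 libraries, a replicate block, each library left out, and transcript length. Counts of lists without genes that passed the filter only through their higher group were added after seeing the data.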

Additional observations from a re-analysis of the deposited data

Results flagged for a closer look

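For 49 genes and the ratio of the TNF receptor genes, 50 values in all, each end of the TNF group was set against its nearest neighbour. A library stood apart for 1 of them, where chance gives about 1 in 20. Frmd8, which encodes a partner of the iRhom proteins, was at 14.7 CPM in TNF replicate 4 and at 18.9, 19.3 and 19.7 CPM in the other TNF libraries, a gap of 0.832 of the group's range, just past Dixon's 95% limit for 4 values. Frmd8 was not called over all libraries (adjusted p = 0.0701) and was called without this library (log2 fold change 0.43, edgeR adjusted p = 0.0309). None of the 10 receptor genes had a TNF library apart.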

How the results depend on the processing

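For the 10 receptor genes, all 140 values under 14 alternatives kept their direction and their side of the threshold. Tnfrsf1a ranged from 0.81 to 1.07 on the log2 scale, Ltbr from 0.55 to 0.76, Tnfrsf1b from 3.78 to 4.08 and Tnfrsf14 from 0.13 to 0.38 (edgeR or DESeq2 adjusted p 0.0845 to 0.607). Total-count scaling moved the median of all tested genes to -0.16 and gave 3142 higher and 4614 lower calls, 40.5% higher against 49.5%. The replicate block gave 3553 higher and 3578 lower calls. Same-numbered libraries did not deviate together (correlations -0.398, -0.0473 and -0.227), so numbers were not taken to pair the mice, and the block changed no call of a member. The higher count among other receptors was 3 without TNF replicate 1, 2 or 3, and ran from 3 to 5. Without genes that passed the filter only through their higher group, a choice made after seeing the data, it was 2. The lower count among ligands was 1, Tnfsf10, with total-count scaling, no filter, the replicate block, or without PBS replicate 1 or TNF replicate 4. Among sheddases, counts without single libraries ran from 1 to 2 higher (2, with Frmd8, without PBS replicate 2 or TNF replicate 4) and from 0 to 1 lower (1, Timp3, without TNF replicate 1). Without single libraries, the difference in the receptor ratio was 2.84 to 3.19, with too few splits left to pass 0.05. Uncalled genes that changed sign without single libraries were Tnfsf12 (-0.61 to 0.18), Tnfsf13b (-0.41 to 0.24), Map3k14 (-0.07 to 0.07), Adam17 (-0.03 to 0.13) and Erap1 (-0.04 to 0.09), and with total-count scaling Adam17 (-0.11) and Erap1 (-0.14). The cause was not tested. Depth limits the low genes, since 3 counts over the PBS libraries correspond to 0.0549 CPM.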
